A study of Caenorhabditis elegans with 2 samples.

Results

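The genes described here encode 4 families of protein folding factors of Caenorhabditis elegans: cyclophilins (cyn), DnaJ proteins (dnj), subunits of the cytosolic chaperonin (cct) and subunits of prefoldin (pfd). They were chosen by name, as protein-coding genes called cyn-, dnj-, cct- or pfd- plus a digit in the WBcel235 annotation, which gave 59 of 19973 genes: 16 cyn, 29 dnj, 8 cct and 6 pfd. Each was examined for binding sites of EKL-4, which is related to mammalian DMAP1, a component of the TIP60 (NuA4) acetyltransferase and of SWR1-type remodelers. There was 1 group of 2 biological replicates, whole young adults at 65 h of strain RW12207, synchronized by starvation at the L1 stage. The animals carried the insertion st12207[ekl-4::TY1::EGFP::3xFLAG] at ekl-4 on chromosome I, made with CRISPR, and chromatin immunoprecipitation with sequencing (ChIP-seq) was done with an antibody against GFP. All cell types of the animal entered each library together, so binding in many cells and strong binding in few cells cannot be told apart.

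Folding factors keep new and damaged proteins from aggregating. The chaperonin, also called CCT or TRiC, is a double ring with 8 kinds of subunit that folds actin and tubulin, and prefoldin hands such unfinished chains to it. DnaJ proteins bind clients and switch on the ATPase of HSP70 chaperones, and cyclophilins speed the turning of peptide bonds at proline. Many chaperone genes are targets of heat shock factor HSF-1, which binds inverted repeats of GAA known as heat shock elements.

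A gene was given a summit if at least 1 of its transcripts started no more than 500 bp from a peak summit of the authors' conservative list. The conservative list held 2482 peaks, and the thresholded lists held 1495 peaks for replicate 1 and 1846 for replicate 2. The signal of a peak is the strength given by the authors' peak caller relative to a control, on a scale that is not stated, and read depth is unknown. The irreproducible discovery rate (IDR) score, at most 1000, is higher the better the rank of a peak repeats between libraries, and the list held no peak below 830. The choice of genes was made with these peak calls known, so counts and signals at these genes are a description and no test was made on them.

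The chaperonin summits are shown first because all 5 of them had a pair of GAA units on the side of the chaperonin gene. Such a pair is only part of a heat shock element and is called the element below. Each stretch was read from the RefSeq genome of WBcel235, which has the coordinates of ce11, on the strand of the chaperonin gene and without annotated exons of protein-coding genes. Stretches run 100 bp to either side of the summit, and that of cct-6 is cut at its 5' side by an exon of its neighbour. Capitals mark GAANNTTC or TTCNNGAA, 2 orientations of a pair of GAA units, searched on both strands, where either is its own reverse complement.
cct-8 (chrIV:1094262-1094462, minus strand): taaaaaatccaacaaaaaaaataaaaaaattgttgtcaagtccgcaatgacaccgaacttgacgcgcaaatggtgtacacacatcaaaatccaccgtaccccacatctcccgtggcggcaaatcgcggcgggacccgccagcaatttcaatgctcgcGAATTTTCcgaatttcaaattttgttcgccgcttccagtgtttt
cct-1 (chrII:8185089-8185289, plus strand): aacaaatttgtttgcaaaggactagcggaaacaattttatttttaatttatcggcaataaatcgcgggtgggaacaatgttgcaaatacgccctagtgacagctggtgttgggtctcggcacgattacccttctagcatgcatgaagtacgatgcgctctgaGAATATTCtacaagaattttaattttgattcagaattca
cct-7 (chrV:1871872-1872072, plus strand): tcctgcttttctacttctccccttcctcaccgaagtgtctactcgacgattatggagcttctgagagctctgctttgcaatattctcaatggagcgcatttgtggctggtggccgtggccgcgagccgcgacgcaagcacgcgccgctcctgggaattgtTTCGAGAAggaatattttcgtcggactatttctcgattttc
cct-5 (chrIII:4508498-4508698, minus strand): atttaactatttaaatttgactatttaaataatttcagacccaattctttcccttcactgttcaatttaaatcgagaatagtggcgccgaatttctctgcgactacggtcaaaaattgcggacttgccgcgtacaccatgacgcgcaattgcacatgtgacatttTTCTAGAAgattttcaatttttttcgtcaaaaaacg
cct-6 (chrIII:5855866-5856017, minus strand): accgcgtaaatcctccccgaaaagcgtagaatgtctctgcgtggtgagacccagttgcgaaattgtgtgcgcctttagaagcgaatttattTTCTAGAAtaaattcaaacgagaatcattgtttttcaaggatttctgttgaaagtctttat

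The stretches at dnj-13, dnj-19, cyn-3 and cyn-7 are shown because they have the element at a similar distance, with capitals as before. The strong summit at dnj-9 is shown as one without it, and its capitals mark TTGGCGC, a site of the E2F type. The stretches at dnj-19 and cyn-7 are cut at the first exon of the neighbouring gene.
dnj-13 (chrII:11545377-11545577, plus strand): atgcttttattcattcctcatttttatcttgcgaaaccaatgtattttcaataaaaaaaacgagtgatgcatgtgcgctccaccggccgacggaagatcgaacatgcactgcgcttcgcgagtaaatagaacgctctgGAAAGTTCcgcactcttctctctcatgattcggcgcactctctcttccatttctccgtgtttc
dnj-19 (chrV:5505150-5505252, minus strand): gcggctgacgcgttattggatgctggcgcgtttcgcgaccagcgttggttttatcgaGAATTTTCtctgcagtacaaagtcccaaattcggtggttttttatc
cyn-3 (chrV:15189657-15189857, plus strand): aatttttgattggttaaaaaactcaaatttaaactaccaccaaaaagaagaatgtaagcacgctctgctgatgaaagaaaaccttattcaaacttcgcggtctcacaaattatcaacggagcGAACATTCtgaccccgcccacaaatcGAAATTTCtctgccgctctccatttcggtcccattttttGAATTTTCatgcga
cyn-7 (chrV:15187741-15187887, minus strand): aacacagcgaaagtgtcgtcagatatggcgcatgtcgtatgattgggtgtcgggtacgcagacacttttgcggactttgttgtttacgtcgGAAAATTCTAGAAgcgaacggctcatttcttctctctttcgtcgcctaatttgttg
dnj-9 (chrII:4851735-4851935, plus strand): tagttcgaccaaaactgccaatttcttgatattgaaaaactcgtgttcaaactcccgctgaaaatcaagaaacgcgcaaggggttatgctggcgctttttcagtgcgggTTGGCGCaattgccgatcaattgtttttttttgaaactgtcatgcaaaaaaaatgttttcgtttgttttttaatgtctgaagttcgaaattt

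With a window of 500 bp and a summit counted for every gene in it, genes of all 4 families had summits and the chaperonin share was the highest. Of the 59 genes, 20 had a summit (33.9%, 95% Wilson interval 23.1 to 46.6), where 6.42% of all protein-coding genes did. By family these were 5 of 8 cct genes (62.5%, interval 30.6 to 86.3), 6 of 16 cyn genes (37.5%, interval 18.5 to 61.4), 2 of 6 pfd genes (33.3%, interval 9.677 to 70.001) and 7 of 29 dnj genes (24.1%, interval 12.218 to 42.1). The intervals cover counting error over genes only, and those of the 4 families overlap. There were 21 summits, since cyn-9 had a pair and the other genes 1 each, and none was shared by members. The order of the families depends on that rule. With the nearest gene alone, 0 of 8 cct, 5 of 16 cyn, 1 of 6 pfd and 5 of 29 dnj genes had a summit (5.33% of all genes), and with a window of 250 bp these were 0, 5, 1 and 4 (4.08% of all genes).

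**Figure D1:**
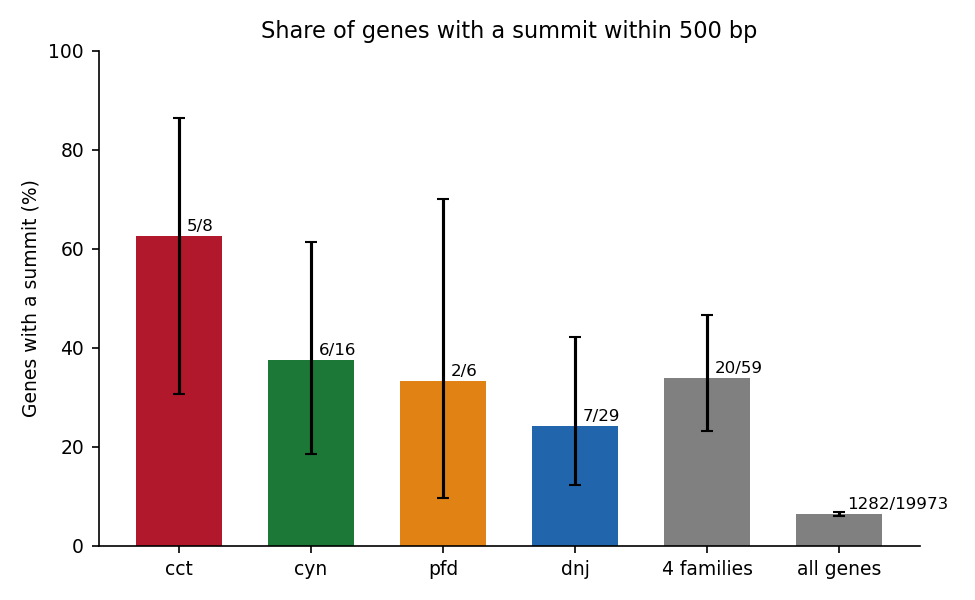
Bars give the percentage of genes with a conservative summit within 500 bp of a 5' end, for each family, for the 59 genes together and for all protein-coding genes. Error bars are 95% Wilson intervals and the labels give genes with a summit over genes in all. The 4 family bars lie between 24.1 and 62.5%, above the 6.42% of all genes. The chaperonin bar would be at 0 with the nearest gene alone or with a window of 250 bp.

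The signal at these summits ran from 4.91 to 602, with a median of 121 (quartiles 93.7 and 179), against a median of 112 (quartiles 88.4 and 160) over all 1152 summits at gene starts. The family medians were 154 for cct, 121 for dnj and 104 for cyn, and the pfd summits had 179 and 114. The spread within a family was wider than the distance between family medians. The strongest 4 summits, at cct-8, dnj-13, dnj-9 and dnj-19, stood at 310.5 or above and the remaining 17 were at 221 or below.

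**Figure D2:**
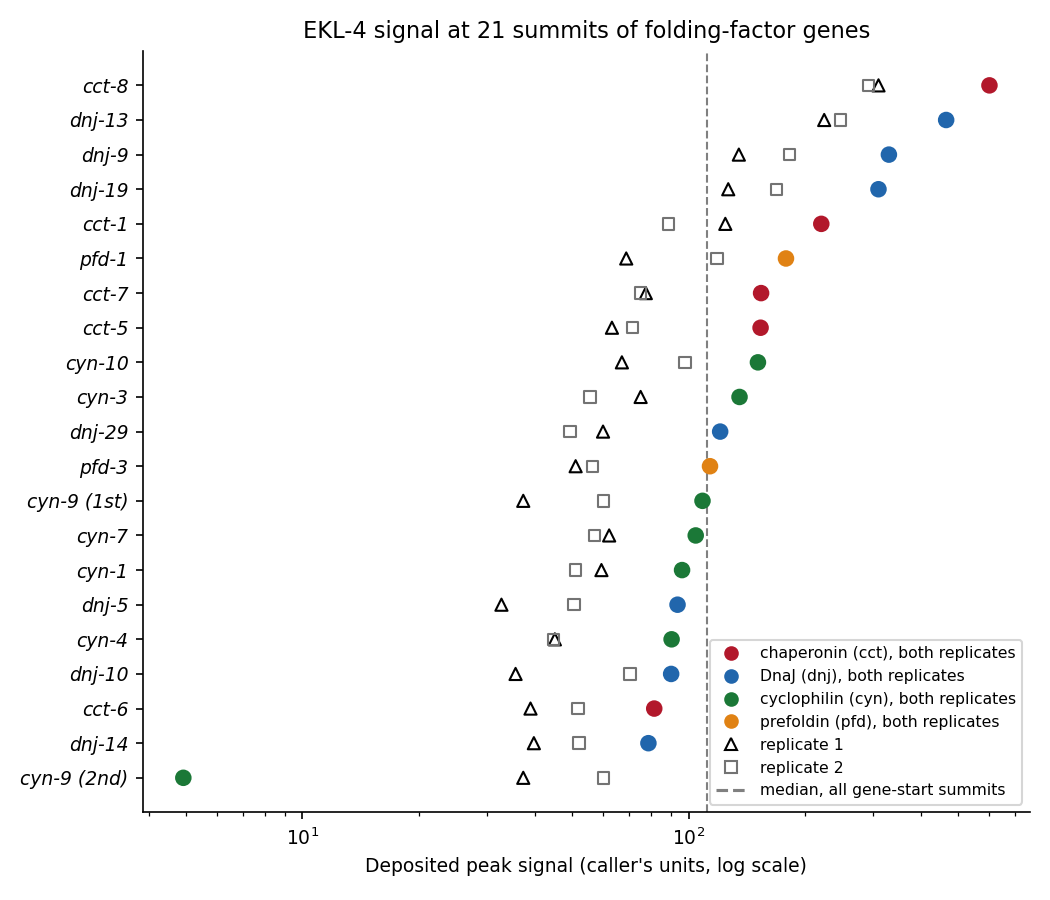
Each row is a summit, ordered by its signal in the conservative list (filled circle, coloured by family), with the signal of the nearest peak summit within 200 bp in the ranked list of replicate 1 (triangle) and replicate 2 (square). The x axis is the deposited signal on a log scale and the dashed line is the median of 112 over all summits at gene starts in the conservative list. Signals of the conservative and replicate lists were not put on a common scale. The filled circles run from 4.91 to 602, and the 2 summits of cyn-9 share their replicate peaks.

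Among the chaperonin genes, the 5 with a summit had it on the far side of a divergent promoter region, nearer to another gene. The gene cct-8, for the theta subunit (IV 1087108 to 1093920, minus strand), had the strongest summit of the 59 genes, with a signal of 602 and rank 17 of the list. It lay in intergenic sequence at -442 bp from cct-8 (negative is upstream) and -179 bp from Y55F3AR.2, and its signals in replicates 1 and 2 were 310.5 and 292. For the alpha subunit gene cct-1 (II 8185443 to 8187601) the summit had a signal of 221, at -254 bp and -166 bp from mig-5, a Dishevelled gene. Its replicate signals were 125 and 88.8, the lowest ratio of replicate 2 to replicate 1 among the 21 summits (0.713).

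The gene cct-7 (eta subunit) had a signal of 154 at -274 bp, with 77.5 in replicate 1 and 75.1 in replicate 2, and shared the summit with T10B5.4. For cct-5 (epsilon subunit) the signal was 154 at -484 bp, the site closest to the edge of the 500 bp window, with 63.3 and 71.5 in replicates 1 and 2, and F25F2.1 was nearer. The weakest of the 5 was cct-6 (zeta subunit), with a signal of 81.5 at -279 bp and -52 bp from alh-9, an aldehyde dehydrogenase gene, and with 39.0 and 51.8 in replicates 1 and 2. All 5 lay in intergenic sequence between a pair of 5' ends 331 to 741 bp apart. The summits of cct-8, cct-1, cct-7 and cct-5 met thresholded peaks of both replicates and that of cct-6 met 1 of replicate 2 alone.

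No summit was found for cct-2, cct-3 or cct-4, the beta, gamma and delta subunit genes. In the longer ranking behind the conservative list, cct-4 had a peak of signal 63.5 at 422 bp with an IDR score of 635, and cct-2 had 1 of 50.9 at 490 bp with a score of 123. At cct-3 neither that ranking nor the ranked list of either replicate had a summit within 500 bp. Of these 3 genes only cct-4 has a divergent neighbour within 1000 bp, nst-1, so 5 of the 6 divergent chaperonin genes had a summit and neither of the 2 others. Because a summit between divergent genes counts for both, the chaperonin count rests on the counting rule: all 5 are lost with the nearest gene alone and with the 250 bp window.

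**Figure D3:**
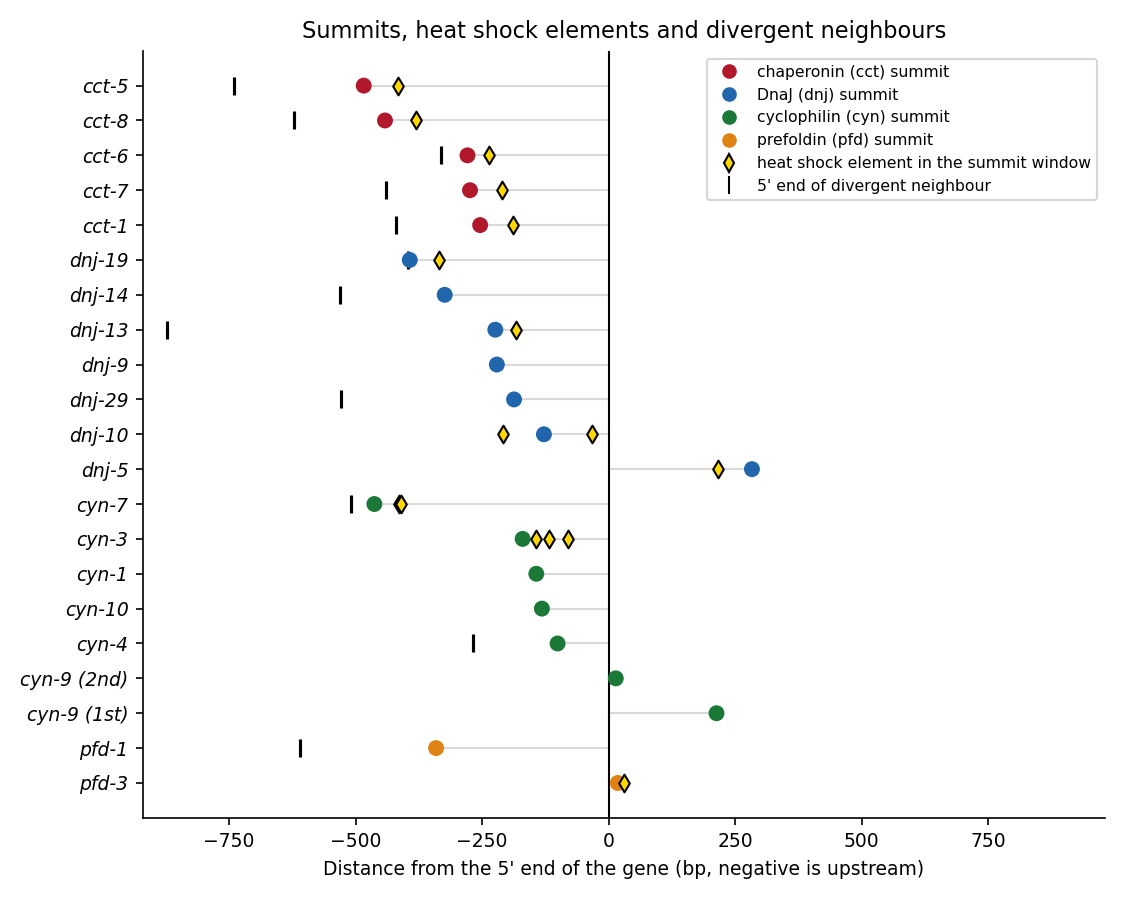
Each row is a gene and summit, with distance from the gene's 5' end on the x axis in bp and negative values upstream. Circles are summits and ticks the 5' end of a divergent protein-coding neighbour within 1000 bp. Diamonds, labelled heat shock elements, are pairs of GAA units within 100 bp of the summit. The 5 chaperonin summits lie between -484 and -254 bp, each with an element between the summit and the chaperonin gene.

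Among DnaJ genes, 3 had strong summits in both replicates and 4 had weaker ones. At dnj-13 (II 11545701 to 11547360, plus strand), for a DnaJ protein of the DNAJB type, the signal was 465, rank 34, with 225 in replicate 1 and 248 in replicate 2. The summit was at -224 bp, in an intron of dhgd-1, a gene on the opposite strand that contains dnj-13. At dnj-9 (II 4852056 to 4857820, plus strand) the signal was 330.4, rank 101, with 135 and 183 in replicates 1 and 2, in intergenic sequence at -221 bp, and no other gene shared it. At dnj-19 (V 5503033 to 5504857, minus strand), for a protein of the DNAJA type, it was 310.5, rank 114, with 127 and 169 in replicates 1 and 2. That summit was at -393 bp from dnj-19 and -3 bp from nhr-47, a nuclear hormone receptor gene. These 3 peaks were 154 to 252 bp wide, and those of cct-1 and cct-8 were 116 and 228 bp wide. Over all summits at gene starts the median and both quartiles of width were 360 bp, the width of every cyn and pfd peak. Most peaks thus had the same width, and what sets it was not tested.

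The other 4 DnaJ summits had signals of 78.7 to 121. At dnj-29 the signal was 121, with 60.1 in replicate 1 and 49.3 in replicate 2, at -187 bp and shared with ndua-2. The gene dnj-10, for a mitochondrial protein of the DNAJA3 type, had 90.2 at -128 bp, with 35.6 in replicate 1 and 70.6 in replicate 2, the highest ratio of the 21 summits (1.98). At dnj-5 a signal of 93.7 lay at 283 bp downstream in coding sequence, with 32.8 and 50.5 in replicates 1 and 2 and an IDR score of 922. On the X chromosome dnj-14, for the cysteine string protein of synaptic vesicles, had 78.7 at -324 bp, shared with glit-1, with 39.8 and 52.0 in replicates 1 and 2. Of these 4, dnj-29 met a thresholded peak of replicate 1 only, dnj-10 of replicate 2 only, and dnj-5 and dnj-14 of neither.

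The cyclophilin summits had signals up to 151 and lay closer to their genes. The strongest was at cyn-10 (II 6912540 to 6913365), with 151 at -132 bp and 67.2 and 97.9 in replicates 1 and 2. Next came cyn-3 with 136 at -170 bp (75.1 and 55.6), cyn-7 with 104 at -463 bp (62.3 and 57.1), cyn-1 with 96.2 at -143 bp (59.5 and 51.0) and cyn-4 with 90.4 at -101 bp (45.1 and 44.7). The gene cyn-4, also known as mog-6, acts in the switch from sperm to oocytes. Its summit was 1 of only 2 with an IDR score below 1000 (928), and it met no thresholded peak of either replicate.

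The neighbours cyn-3 and cyn-7 on chromosome V flank bath-36, with a summit on each side of it. The summit of cyn-7 was at -47 bp from bath-36, and that of cyn-3 was not within 500 bp of any other 5' end. No 31-mer within 100 bp of either summit occurred more than once in the genome. The gene cyn-9 follows pdi-1, a protein disulfide isomerase gene, by 99 bp on the same strand. Its summits lay in coding sequence at 213 bp (signal 109) and 14 bp (signal 4.91), and the replicate peaks nearest to both were the same, with 37.3 in replicate 1 and 60.2 in replicate 2. The signal of 4.91 ranked 2455 in the list although its IDR score was 1000.

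Of the prefoldin genes, pfd-1 and pfd-3 had a summit. For pfd-1 (IV 11150113 to 11150930, plus strand) the signal was 179 at -341 bp and -268 bp from F01G4.6, with 69.0 in replicate 1 and 118 in replicate 2. For pfd-3 it was 114 in the 5' UTR, at 18 bp downstream of the start, with 51.0 and 56.4 in replicates 1 and 2, and it met no thresholded peak of either replicate. The other subunit genes, pfd-2, pfd-4, pfd-5 and pfd-6, had ranked peaks of 35.3, 48.1, 21.3 and 64.3, and the IDR score of the strongest, at pfd-6, was 640.

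Of the 21 summits, 17 were upstream and 4 downstream, where 74.7% of all pairs of gene and summit were upstream, and 16 were intergenic, 3 in coding sequence, 1 in an intron and 1 in a 5' UTR. These locations consider protein-coding genes alone. Of the summits called intergenic, that of dnj-19 lay in the non-coding RNA gene C24G6.10 and that of dnj-14 in DL2.1 and DL2.2. The intronic summit of dnj-13 also lay in a non-coding RNA gene, F54D5.22. The median offset was -221 bp (quartiles -324 and -128), against -153.5 bp (quartiles -274 and 1) over all 1404 pairs of gene and summit. Another gene shared 11 of the 21 summits (52.4%), against 248 of 1152 summits at gene starts (21.5%). In 9 of these 11 the other gene was nearer, where over all genes with a shared summit the gene was the nearest in 49.6% of pairs, a share that the counting itself holds near that value. Those 9 were the 5 chaperonin genes, cyn-7, dnj-14, dnj-19 and pfd-1, while cyn-4 was nearer than copz-1 and dnj-29 nearer than ndua-2.

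Counts of gene arrangement differed between the families, with no test. A divergent neighbour within 1000 bp was present for 6 of 8 cct, 13 of 29 dnj, 4 of 16 cyn and 2 of 6 pfd genes. Over all protein-coding genes it was present for 3539 of 19973. Among the 25 divergent genes of the 4 families 12 had a summit, where 14.2% of all 3539 divergent genes did. Among 20 further genes that started within 500 bp after a gene on the same strand, 5 had a summit, against 8.86% of all such genes. Of the 14 genes in neither position 3 had one, against 3.60%. By chromosome the counts were 2 of 11 on I, 6 of 15 on II, 4 of 11 on III, 2 of 10 on IV, 5 of 9 on V and 1 of 3 on X, where the shares of all genes ran from 2.67% on X to 9.81% on III.

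The element, a pair of GAA units and only part of a heat shock element, was found within 100 bp of 12 of the 21 summits (57.1%). It was in 23.2% of the 1152 windows at all gene-start summits and in 22.1% of windows of the same length directly before all protein-coding genes. By family the windows with one were 5 of 5 for cct, 4 of 7 for dnj, 1 of 2 for pfd and 2 of 7 for cyn. The windows at these genes had a median GC content of 38.8%, against 42.0% at all gene-start summits. Among gene-start windows at or below that median of 42.0% GC the element was in 30.2%, and the part of base composition in the count was not tested. The genes with an element at the summit were the 5 chaperonin genes, cyn-3, cyn-7, dnj-5, dnj-10, dnj-13, dnj-19 and pfd-3. The median signal was 145 (quartiles 102 and 243) at the 12 windows with an element and 109 (quartiles 90.4 and 151) at the 9 without. Over all gene-start summits it was 110 with and 112 without. The ranges of the 12 and the 9 overlap, at 81.5 to 602 and 4.91 to 330, and the 9 include both summits of cyn-9.

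**Figure D4:**
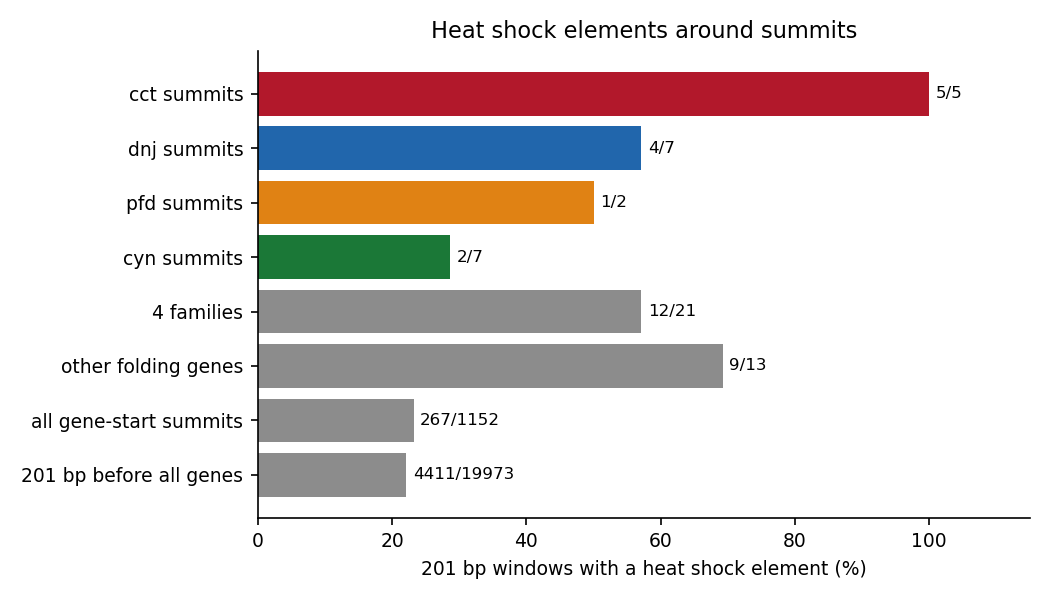
Bars give the percentage of windows that hold GAANNTTC or TTCNNGAA, 100 bp to either side of the summits of each family, of the 59 genes together, of other folding genes and of all genes, and of the same length directly before all protein-coding genes. These letters are a pair of GAA units, called a heat shock element in the figure. Labels give windows with an element over windows in all. The 5 chaperonin windows all held one, against 267 of 1152 at all gene-start summits.

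The element lay 40 to 70 bp from the summit, on the side of the gene, at 9 of the 12 genes with one. In the chaperonin windows its centre was 60.5 bp (cct-8), 65.5 bp (cct-1), 63.5 bp (cct-7), 68.5 bp (cct-5) and 43.5 bp (cct-6) from the summit, in each case on the side of the chaperonin gene and away from its neighbour. The same side and a like distance were found at dnj-13 (41.5 bp), dnj-19 (58.5 bp), cyn-7 (48.5 and 53.5 bp) and cyn-3 (51.5 bp, with further elements at 25.5 and 90.5 bp). The other 3 genes had it elsewhere, at 11.5 bp (pfd-3), at -66.5 bp, on the upstream side of the summit (dnj-5), and at 95.5 and -80.5 bp (dnj-10). Of the 16 elements in these windows 14 were downstream of the summit in the direction of the gene, and 10 (62.5%) were 40 to 70 bp downstream. These were all 5 cct elements, 3 of 5 cyn, 2 of 5 dnj and 0 of 1 pfd elements. The cyn-7 elements at 48.5 and 53.5 bp overlap and were counted separately. Over all genes with a summit, an element 40 to 70 bp downstream was found at 70 of the 339 genes with an element. Of their 468 elements, 231 were downstream (49.4%) and 84 (17.9%) were 40 to 70 bp downstream. In that count an element at a summit shared by divergent genes enters once for each gene, on opposite sides. This pulls the downstream share toward an even split, while elements of the families described here were counted for the member gene alone. The range of 40 to 70 bp was chosen after the positions were seen, so it is a description with no test. A match of these letters does not show that a factor binds there.

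Within 500 bp upstream of the gene start the element was common at genes with and without a summit. It was present for 15 of the 20 genes with a summit and 21 of the 39 without, against 48.4% of all protein-coding genes. Each of the 8 chaperonin genes had at least 1, which for the 3 without a summit was at -18.5 bp (cct-3), -262.5 bp (cct-2) and -162.5 bp (cct-4) from the start. A run of 3 units, the same element with a further alternating unit at the same spacing, was counted after the data were seen. It was in 1 of the 21 summit windows, at cyn-7, and in 0 of the 5 cct windows, against 2.69% of all gene-start windows. At the other folding genes described below, 4 of 13 summit windows held such a run (30.8%).

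Sites of the E2F type were searched in 4 spellings on both strands and were in 6 of the 21 windows (28.6%), against 20.6% of all gene-start windows and 6.29% of windows before all genes. The spelling TTGGCGC was found at cyn-10, dnj-9 and pfd-3, where it was present in 6.86% of all windows at gene-start summits. A second spelling, TTGCCGC, occurred at the chaperonin genes cct-5 and cct-8, both of which also had a pair of GAA units, and at 3.65% of all gene-start summits. At cyn-7 the spelling was TTCCCGC, which occurred at 6.34% of all gene-start summits. The last spelling that was searched on both strands, TTCGCGC, was at none of the 21 summits, against 7.20% of all.

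Among other promoter motifs, the TATA box letters TATAAA were in 1 window, at dnj-5, against 13.5% of gene-start windows and 30.5% of windows before all genes. The core of the unfolded protein response element, TGACGTG, was found at both cyn-4 and dnj-29, which is 2 of 21 windows, against 2.69% of all windows at gene-start summits. A repeat of GA letters, GAGAGAG, was found in the windows of dnj-13 and pfd-3, where 10.7% of all windows at gene-start summits held it. The site of DAF-16 type, GTAAACA, was found in the window of cyn-7 alone, where 2.95% of all windows at gene-start summits held it. The E-box letters CACGTG were found in none of the 21 windows, where 4.77% of all windows at gene-start summits held them. The motif CTGCGTCTC was found at pfd-3 alone, where 7.64% of all windows at gene-start summits held it.

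The remaining 39 genes had no conservative summit, and ranked peaks near many of them were weak. Besides those named above they were cyn-2, cyn-5, cyn-6, cyn-8, cyn-11, cyn-12, cyn-13, cyn-15, cyn-16, cyn-17, dnj-1, dnj-2, dnj-3, dnj-4, dnj-7, dnj-8, dnj-11, dnj-12, dnj-15, dnj-16, dnj-17, dnj-18, dnj-20, dnj-21, dnj-22, dnj-23, dnj-24, dnj-25, dnj-26, dnj-27, dnj-28 and dnj-30. In the ranking behind the conservative list, 31 of the 39 had a peak summit within 500 bp (79.5%), with a median signal of 46.6, against 57.3% and 35.0 over all protein-coding genes without a conservative summit. Neither that ranking nor either replicate's had a peak at cct-3, dnj-26 or dnj-27, the last of which encodes an endoplasmic reticulum protein of the DNAJC10 type. The TIM14 gene dnj-21, for a subunit of the mitochondrial import motor, had a peak of 36.5 with an IDR score of 39.

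Some genes lay just outside the rule. By distance, the nearest of the 39 was cyn-5 with a conservative summit at 905 bp, while cct-5, cyn-7 and cct-8 were the farthest inside at -484, -463 and -442 bp. By IDR score, cyn-2 had 827 and cyn-5 had 792, below the lowest score in the list of 830. In the larger thresholded list, 25 of the 59 genes had a summit (7.2% of all genes), with cyn-2, cyn-5, cyn-13, dnj-12 and dnj-28 added and none of the 20 lost. The count was 18 at an IDR score of 1000 (4.86% of all genes), 13 at or above the median signal of the list (3.84%) and 21 with a window of 1000 bp (8.82%). It was 20 from the gene's own 5' end only (5.96%) and 20 when any base of the peak could lie in the window (7.26%).

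At 3 of these 5 genes the replicates differed widely. The summit of dnj-28 in the larger list had a signal of 228 at -114 bp, with 103 in replicate 1 and no ranked peak within 200 bp in replicate 2. That of dnj-12, for a DnaJ protein of the DNAJA type, had 124 at -47 bp, with 80.5 in replicate 1, and in replicate 2 with 17.4 at the nearest ranked summit and 38.3 at the strongest within 500 bp. At cyn-13 it was the other way round, with 100.2 in the larger list, 70.5 in replicate 2 and no ranked peak within 200 bp in replicate 1. The gene dnj-11, for the ribosome-associated DNAJC2 type, had a thresholded peak in replicate 1 alone, with a signal of 51.0 against 34.5 for the strongest ranked peak in replicate 2.

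Replicates ranked the 21 summits in a similar order. The conservative list favours peaks whose rank repeats between libraries, so a like order and a peak in both were partly fixed by that choice. Each summit had a ranked peak within 200 bp in both replicates, with a median signal of 62.3 in replicate 1 and 60.2 in replicate 2. Over the 21 summits Spearman's rho was 0.726 and Pearson's r of log2 signal was 0.883, values across summits that share their libraries and include the shared peaks of cyn-9. The signal was higher in replicate 2 at 13 of the 21 summits, against 81.1% of all gene-start summits, and the median ratio of replicate 2 to replicate 1 was 1.13 against 1.31. Since the lists were scaled separately, these ratios are read only beside each other. Of the 21 summits 10 met thresholded peaks of both replicates, 3 of replicate 1 only, 4 of replicate 2 only and 4 of neither, against 45.7, 10.9, 17.7 and 25.7% of all gene-start summits. Among genes, 10 of 59 had a summit that met both lists (3.11% of all genes): cct-1, cct-5, cct-7, cct-8, cyn-7, cyn-10, dnj-9, dnj-13, dnj-19 and pfd-1. With an overlap of at least 0.5 of the peak the count was also 10 (2.98% of all genes). The list of replicate 2 alone held 14 of the 59 genes (4.76% of all genes) and that of replicate 1 alone held 15 (4.46%).

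**Figure D5:**
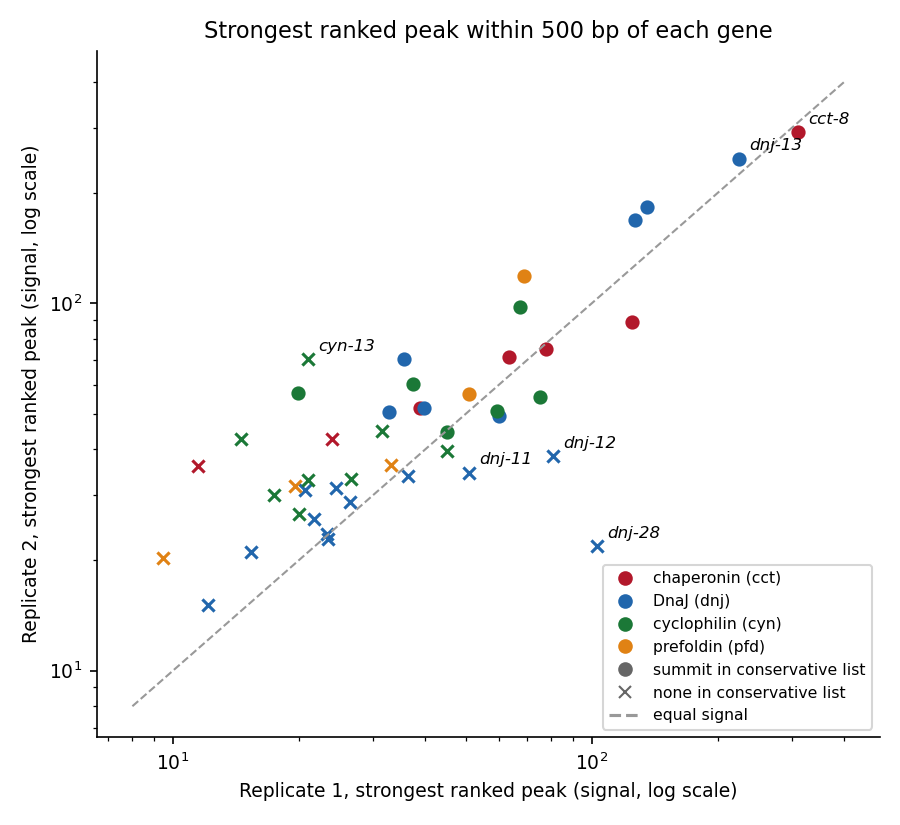
Each point is a gene with a ranked peak within 500 bp in both replicates (45 of 59), at the signal of the strongest such peak in replicate 1 (x axis) and replicate 2 (y axis), both on log scales. Circles are the 20 genes with a conservative summit and crosses the 25 without, and the dashed line marks equal signal. The replicate lists were scaled separately. For cyn-7 the replicate 1 summit is just outside the window, so a weaker one is plotted. The point of cct-8 is at 310.5 and 292, while dnj-28 (103 and 21.8) and dnj-12 (80.5 and 38.3) lie below the line and cyn-13 (at 70.5 in replicate 2) above it.

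Summits were also found at other folding genes, from a list that earlier results on these data had shaped. Of 51 names listed for HSP70, HSP90, small heat shock proteins, co-chaperones, other prolyl isomerases, disulfide isomerases and lectin chaperones, 48 were in the annotation. They gave 50 genes, since hsp-16.1 and hsp-16.48 each name a pair of genes there, and 13 of the 50 had a summit (26.0%, against 6.42% of all genes). The strongest were hsp-90 (453), hsp-110 (425) and hsp-1 (372), for the cytosolic HSP90, HSP110 and HSP70 proteins. Of their 13 summits 9 had the element, a pair of GAA units, within 100 bp (69.2%). Of 16 elements 14 were downstream of the summit in the direction of the gene. Of the 16, 6 (37.5%) were 40 to 70 bp downstream, at 4 of the 9 genes. Overlapping elements, as at ahsa-1 (49.5, 54.5 and 59.5 bp), were counted separately. The DnaJ gene with the strongest summit, dnj-13, thus had a signal of 465 beside 453 at hsp-90.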

How the data were processed

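The values are per-peak numbers from 1 ChIP-seq experiment with 2 biological replicates of 1 group. The authors ranked peaks on ce11 by IDR with a control, and a further input that is not described entered the thresholded lists, per the deposited text files. Which aligner and peak caller were run is not given in the sources used here. Chromatin was sonicated to 200 to 800 bp, per the labels. The deposited signal is the caller's strength relative to the control, on an unstated scale. Signals of different lists are shown side by side but were not put on a common scale. The deposited score is the authors' IDR score. Read depth is unknown, and the control was not analysed here. The ranking behind the conservative list also has 8 columns for single libraries, which were not used.

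Genes were those of Ensembl release 115 on WBcel235, and no peak ended beyond its chromosomes (0 peaks). Positions are 1-based. The members, gene list and motifs were chosen with earlier results of these data known. The positional range and the runs of 3 GAA units were chosen after values were seen. All members are named, those with a summit with full values, and of the other folding genes the 3 strongest. Replicate values are those of the nearest ranked summit within 200 bp. Motifs were counted on both strands within 100 bp of a summit. With 1 group there was no test, and replicates enter only side by side. The assignment of summits to genes was tested on simulated data. Alternatives changed the list, threshold, window, assignment and overlap, and left out each replicate. Tables were handled with pandas 2.3.3 and numpy 2.4.6 in Python 3.11.15, intervals came from scipy 1.17.1 and plots from matplotlib 3.10.9.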

Additional observations from a re-analysis of the deposited data

How the results depend on the processing

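Counts were those of the 20 genes with a summit, 5 cct, 6 cyn, 7 dnj, 2 pfd and 13 other folding genes, and the medians were a signal of 121 and an offset of -221 bp. With summits counted for the nearest gene alone, 11 of the 59 genes were left, with 0 cct, 1 pfd and 8 other folding genes, a median signal of 111 and an offset of -130 bp. With a 250 bp window there were 10 genes, with 4 dnj, 0 cct, 1 pfd and 7 other folding genes, a median signal of 114 and an offset of -132 bp. The 1000 bp window gave 20 other folding genes, 114 and -187 bp, and the larger list 114 and -143 bp. Summits at or above the median signal left 13 genes, with 3 cyn and 4 dnj, and a median signal of 154. A score of 1000 gave a median signal of 136. Peaks that met both replicate lists left 10 genes, with 2 cyn, 3 dnj and 1 pfd, a median signal of 199.8 and an offset of -307.5 bp, and the same values resulted when at least 0.5 of the peak had to overlap. Leaving out a replicate, with the other's own list, gave 14 to 15 genes, 4 to 5 cct, 3 to 4 cyn, 4 to 7 dnj, 1 pfd in each, 12 to 13 other folding genes, a median signal of 77.5 to 82.0 and an offset of -250 to -224 bp. Those signals are not on the scale of the conservative list. Over all gene-start summits the medians were 51.3 and 67.3 in the ranked lists of replicates 1 and 2, against 112 in the conservative list. The list of replicate 2 alone held 4 dnj genes and that of replicate 1 alone 3 cyn genes. The median replicate signals of 62.3 and 60.2 were 75.1 and 82.0 in the thresholded lists, over 13 and 14 summits, and that of replicate 2 was 65.4 with pairing within 100 bp. The cause of these changes was not tested beyond what each alternative removes. The other alternatives kept each count within 1.5 times and each median within the SD over the replicate lists (3.14 in signal, 18.4 bp in offset). That SD is over only 2 medians. For signal it comes from lists not on the scale of the conservative list, so it is an arbitrary limit and no measure of spread. No paired analysis was possible because there is 1 group. Depth is unknown, so absence from a list does not show absence of binding.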
